A study of Homo sapiens with 30 samples.

Results

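The genes described here are 48 interferon-stimulated effector genes, the antiviral proteins and their helpers that cells make in response to type I interferon. They were chosen by name, from families whose induction by interferon is well established, but with earlier results of these data known. All 48 were found among the 58780 genes of the deposited count table. After a filter on low counts, 42 of the 48 could be tested, among 22919 genes tested in all.

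When type I interferon binds its receptor, kinases bound to the receptor activate transcription factors that join IRF9 in the complex ISGF3. ISGF3 binds the interferon-stimulated response element in the promoters of these genes and switches them on together. Their products act against viruses at many steps: they bind or degrade viral RNA, block entry or release, deplete nucleotides, or attach ubiquitin-like and ADP-ribose tags to proteins. Epithelial cells of the airway, the tissue from which the cell line used here derives, are a main site of this response.

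The study measured nascent transcription by PRO-seq (precision run-on sequencing, which maps RNA polymerases engaged on DNA) in A549, an established human lung adenocarcinoma line. Its question was how transcription responds to inhibitors of protein arginine methyltransferases (PRMTs) and to the glucocorticoid dexamethasone (Dex), alone or together. The 30 libraries fall into 15 groups of 2. MS023, an inhibitor of the Type I PRMTs, which deposit asymmetric dimethylarginine, was given at 1 µM for 2, 4 or 7 days. GSK591, an inhibitor of PRMT5, the main Type II enzyme, which deposits symmetric dimethylarginine, was given at 1 µM for the same times. Dex at 100 nM was given alone for 15 min or 3 h, for 3 h together with either inhibitor, or for 15 min or 3 h to cells that had first had either inhibitor for 7 days. All groups, the untreated one included, were in 0.01% DMSO. The untreated group, labelled 15 min, is the only control for every time, so time in culture and treatment cannot be told apart in comparisons with it. The labels do not say that the 2 libraries of a group came from separate cultures, and the p-values measure only the spread between these libraries. No label names added interferon.

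The promoters of the genes are shown first because the members were picked for a shared form of control. RefSeq promoters (GRCh38.p14, 250 bases before to 50 bases after the start of a transcript) were found for 39 of the 48 genes. The core of the interferon-stimulated response element was searched on both strands as GAAA, any 2 bases, and GAAA again. It was present in 28 of the 39 genes (71.8%), against 4.38% of all 27305 genes with a promoter of that length. The core of the gamma-activated site, a related element of interferon signalling, searched as TTCNNNGAA, was in 28.2% of the genes, against 9.38% of all genes. A core shared by glucocorticoid response elements, searched as ACANNNTGT, was in 7.69%, against 6.54%. The first 4 promoters below belong to the genes with the largest difference after 4 days of MS023 among those that hold the element, and they show it in several arrangements. Of these, BST2 and IFI6 passed the filter on low counts only through the 4-day MS023 libraries, which favoured their place in that order. The last, of TRIM21, carries it although the gene passed no test in any comparison. Each is written 5′ to 3′ on the strand of the gene, with every match to the core of the response element, on either strand, in capitals.
BST2: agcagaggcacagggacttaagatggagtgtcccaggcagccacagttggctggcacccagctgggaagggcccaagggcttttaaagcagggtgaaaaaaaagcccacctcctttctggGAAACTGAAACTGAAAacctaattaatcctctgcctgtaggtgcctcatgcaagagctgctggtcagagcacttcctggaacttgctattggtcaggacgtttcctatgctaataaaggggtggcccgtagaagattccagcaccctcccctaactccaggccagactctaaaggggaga
IFI6: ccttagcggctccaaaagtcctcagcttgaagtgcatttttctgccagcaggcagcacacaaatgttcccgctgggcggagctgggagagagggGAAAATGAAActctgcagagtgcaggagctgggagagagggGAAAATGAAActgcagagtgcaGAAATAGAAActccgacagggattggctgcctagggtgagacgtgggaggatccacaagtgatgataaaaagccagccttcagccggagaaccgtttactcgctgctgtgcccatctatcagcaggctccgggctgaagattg
IFIT1: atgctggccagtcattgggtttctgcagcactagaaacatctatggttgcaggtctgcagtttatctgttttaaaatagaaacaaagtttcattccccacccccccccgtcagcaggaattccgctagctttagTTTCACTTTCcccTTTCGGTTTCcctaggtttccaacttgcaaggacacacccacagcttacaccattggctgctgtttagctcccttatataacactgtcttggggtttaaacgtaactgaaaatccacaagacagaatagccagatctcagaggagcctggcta
MX1: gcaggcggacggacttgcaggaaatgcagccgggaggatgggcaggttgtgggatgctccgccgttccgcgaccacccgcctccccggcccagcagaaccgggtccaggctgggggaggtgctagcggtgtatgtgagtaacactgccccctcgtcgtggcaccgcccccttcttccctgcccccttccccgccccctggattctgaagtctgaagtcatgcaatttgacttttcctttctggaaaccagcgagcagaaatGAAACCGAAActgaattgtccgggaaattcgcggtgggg
TRIM21: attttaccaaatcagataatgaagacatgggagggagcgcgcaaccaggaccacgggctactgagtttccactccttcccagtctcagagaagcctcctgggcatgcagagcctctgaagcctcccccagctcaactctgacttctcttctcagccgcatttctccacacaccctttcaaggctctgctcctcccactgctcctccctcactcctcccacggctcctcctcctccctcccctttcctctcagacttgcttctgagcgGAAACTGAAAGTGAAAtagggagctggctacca

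BST2 (chr19:17405581-17405880, minus strand) has 2 overlapping matches, and IFI6 (chr1:27672143-27672442, minus strand) has 3 that do not overlap. IFIT1 (chr10:89392373-89392672, plus strand) has 2 on the opposite strand, which read TTTC, any 2 bases and TTTC in the gene's direction. MX1 (chr21:41420308-41420607, plus strand) has 1, which begins 11 bases after the start. TRIM21 (chr11:4393653-4393952, minus strand) has 2 that overlap, also after the start. A match describes the letters in this window and is not evidence that a factor was bound.

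The libraries held 8441211 to 13069598 counts, of which mitochondrial genes took 58.7% to 78.7%. The counts outside mitochondrial genes came to 2541528 to 3957508 per library, and the 48 genes together to 1627 to 6148, so that a typical member rests on few counts. Within a group, the libraries correlated at r = 0.923 (Dex with MS023) to 0.983 (MS023 for 4 days) across 11117 genes, which are not independent replicates. Markers of epithelium and of A549 were present in all 30 libraries at a summed 788 to 1541 CPM (counts scaled to a common library size), with none of the 8 markers at 0. They differed widely: KRT7 alone read 111 to 459 CPM and KRT8 157 to 456. EPCAM (0.957 to 6.19 CPM) and CDH1 (1.00 to 6.65) were low, in a range that overlaps that of the fibroblast marker COL1A1 (2.41 to 8.24). Leukocyte markers summed to 3.91 to 10.3 CPM, fibroblast markers to 3.32 to 10.6 and endothelial markers to 0.208 to 2.24. All CPM values here are scaled by the trimmed mean of M-values (TMM), and a gene passed the test when its adjusted p in edgeR's quasi-likelihood test was below 0.05.

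Of the 8 treatments compared with untreated cells, MS023 for 4 days gave the largest number of higher effector genes. Of the 42 tested genes, 30 were higher and 0 lower. Across all genes, 14.2% passed the same test in either direction. A gene that passed the count filter only through its MS023 libraries would have had to differ. The 27 members that reached the filter's count in both untreated libraries are therefore the fairer group, and of these 21 were higher and 0 lower. Their median difference was 0.98 on the log2 scale, and that of the 42 was 1.13, beside -0.0011 for all genes tested. The genes that were higher come from several arms of the response: viral RNA binding (IFIT1), RNA degradation (OAS1, OAS2 and OAS3), nucleocapsid binding (MX1), entry (IFITM2 and IFITM3) and the ISG15 system. The 12 tested members that did not pass ranged from -0.18 (PLSCR1) to 1.27 (IFITM1, adjusted p = 0.19 in edgeR). In a bulk measurement, a change in the share of responding cells and a change in transcription per cell cannot be told apart.

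The response differed by time. After 2 days of MS023, 12 of the 42 genes were higher and 0 lower, against 10.4% of all genes in either direction, and after 7 days 6 were higher and 0 lower, against 13.6%. The number at 7 days is therefore near that over all genes. Among the 27 members with enough untreated counts, 9 were higher at 2 days and 5 at 7 days. The median difference of the 42 was 0.45 at 2 days and 0.40 at 7 days. Summed over all 48 genes, transcription was 211 to 213 CPM in the untreated libraries, 295 to 307 on day 2, 413 to 438 on day 4, and 258 to 269 on day 7. The sums of the 4 groups do not overlap. The mitochondrial share of counts also differed, at 73.4% to 76.0% in the untreated libraries, 62.2% to 65.0% on day 2, 64.9% to 66.1% on day 4, and 58.7% to 59.6% on day 7. With mitochondrial and ribosomal RNA genes left out, the numbers of effector genes that passed were again 12, 30 and 6. That run kept TMM scaling and tested 22335 genes, so the numbers could hardly change. The part of the mitochondrial share in the result was not tested. Summed leukocyte markers averaged 7.54 CPM untreated and 7.96, 7.57 and 8.02 at the 3 times. Fibroblast markers averaged 4.52 CPM untreated and 3.37, 6.12 and 9.24, and their part in the result was not tested.

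The numbers depend on the scaling and on single libraries. Scaling by total counts instead of TMM moved the median of all genes by 0.68, 0.74 and 1.02 on the log2 scale at 2, 4 and 7 days. The members that passed were then 27, 39 and 35, beside 9228, 11285 and 16196 of all 22919 genes tested. Of all calls at 4 days, 99.01% were higher, against 55.07% with TMM, so that differences below are relative to the typical gene. With any 1 of the compared libraries left out, 18 of the 30 genes at 4 days still passed, 3 of the 12 at 2 days (OASL, IFIT1 and IFIT2) and 2 of the 6 at 7 days (ISG20 and PARP10). The smallest number at 4 days was 21, without untreated replicate 1 or without MS023 replicate 2. At 2 days it was 7, without untreated replicate 1 or MS023 replicate 1, and at 7 days 2, without untreated replicate 1.

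**Figure D1:**
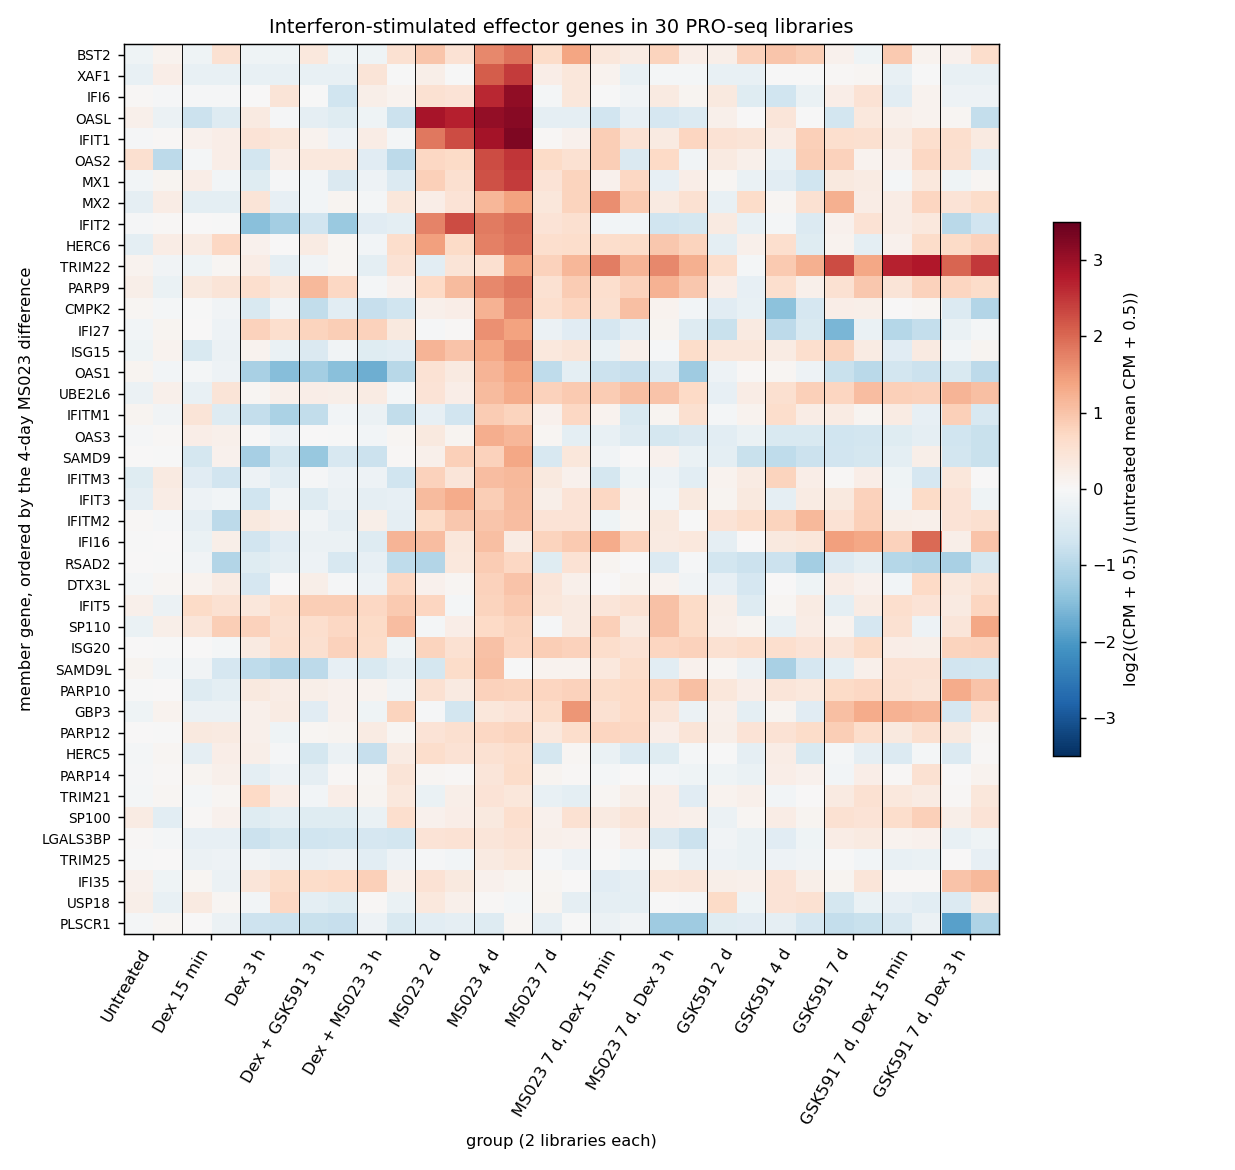
Transcription of the 42 tested effector genes in all 30 libraries, as log2 of the ratio of CPM + 0.5 to the untreated mean + 0.5, with genes in rows ordered by their difference after 4 days of MS023 and libraries in columns by group. The 2 columns for MS023 at 4 days are the warmest, where 30 of the 42 genes passed the test, and the 2-day columns follow, with 12.

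Among the RNA-binding IFIT proteins, which hold viral RNA by its 5′ end and keep it from the ribosome, 3 of 4 tested members were higher after 2 days, 4 at 4 days and 0 at 7 days. Over all genes, 10.4%, 14.2% and 13.6% passed at these times in either direction. All 4 lie in one cluster on chromosome 10 (chr10:89283694-89421001, hg38). IFIT1 (ENSG00000185745.9) stood at 1.33 and 1.41 CPM in the untreated libraries, at 6.26 and 8.68 after 2 days of MS023, at 13.6 and 17.4 after 4 days and at 1.42 and 1.59 after 7 days. The 4-day libraries are above all others and the 7-day libraries lie just above the untreated ones. The difference was 2.43 (SE 0.303) at 2 days and 3.49 (SE 0.281) at 4 days on the log2 scale, with adjusted p = 8.27e-08 and 2.28e-13 in edgeR's quasi-likelihood test.

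IFIT2, from the same cluster, had similar levels at 2 and 4 days. It read 1.67 and 1.81 CPM untreated, 6.94 and 10.4 on day 2, 7.46 and 8.12 on day 4, and 2.62 and 2.82 on day 7, and the 2-day and 4-day ranges overlap. IFIT3 went from 2.11 and 3.32 CPM to 6.45 and 7.48 on day 2 and 5.40 and 6.41 on day 4, and its 2-day libraries are the highest. IFIT5, a related RNA-binding protein, was 3.67 and 2.72 CPM untreated and 5.83 and 6.41 at 4 days (0.94, SE 0.265, adjusted p = 0.0110 in edgeR). The 4-day calls of IFIT3 and IFIT5 were lost with a library left out: IFIT3 had adjusted p = 0.183 without untreated replicate 1 and 0.088 without MS023 replicate 2, and IFIT5 had 0.176 without untreated replicate 2 and 0.0875 without MS023 replicate 2.

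The OAS genes code for oligoadenylate synthetases, which sense double-stranded RNA and make a small messenger that sets off RNA degradation, and for OASL, a relative without that activity. OASL (ENSG00000135114.12, chr12:121019111-121039242) had the largest difference of any tested member at 2 days. Its untreated libraries did not both reach the filter's count, so a rise of OASL was favoured by the filter. It read 1.22 and 0.806 CPM untreated, 10.8 and 9.41 on day 2, 12.4 and 13.2 on day 4, and 0.708 and 0.724 on day 7. Both 7-day libraries are below both untreated libraries, although that difference did not pass the test. At 2 days the difference was 3.31 (SE 0.344, adjusted p = 1.12e-09) and at 4 days 3.65 (SE 0.334, adjusted p = 1.03e-11), by edgeR.

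OAS1, OAS2 and OAS3, in one cluster on chromosome 12 (chr12:112906777-113011723), passed the test at 4 days and at neither other time. OAS3, the largest of the synthetases, was 13.3 and 14.3 CPM untreated, 17.6 and 14.8 on day 2, 34.3 and 31.7 on day 4, and 14.6 and 10.8 on day 7. OAS1 was 4.67 and 4.03 CPM untreated, 6.36 and 5.54 on day 2, 10.7 and 12.3 on day 4, and 2.12 and 3.33 on day 7. OAS2 read 0.89 and 0 CPM untreated and 4.12 and 4.84 at 4 days. The 4-day libraries of all 3 genes lie above every other time and the untreated cells, with differences of 1.25 (SE 0.141) for OAS3, 1.40 (SE 0.244) for OAS1 and 3.36 (SE 0.738) for OAS2. OAS2 reached the filter's count in both libraries only in the 3 groups with MS023 alone, so its rise was favoured by the filter.

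**Figure D2:**
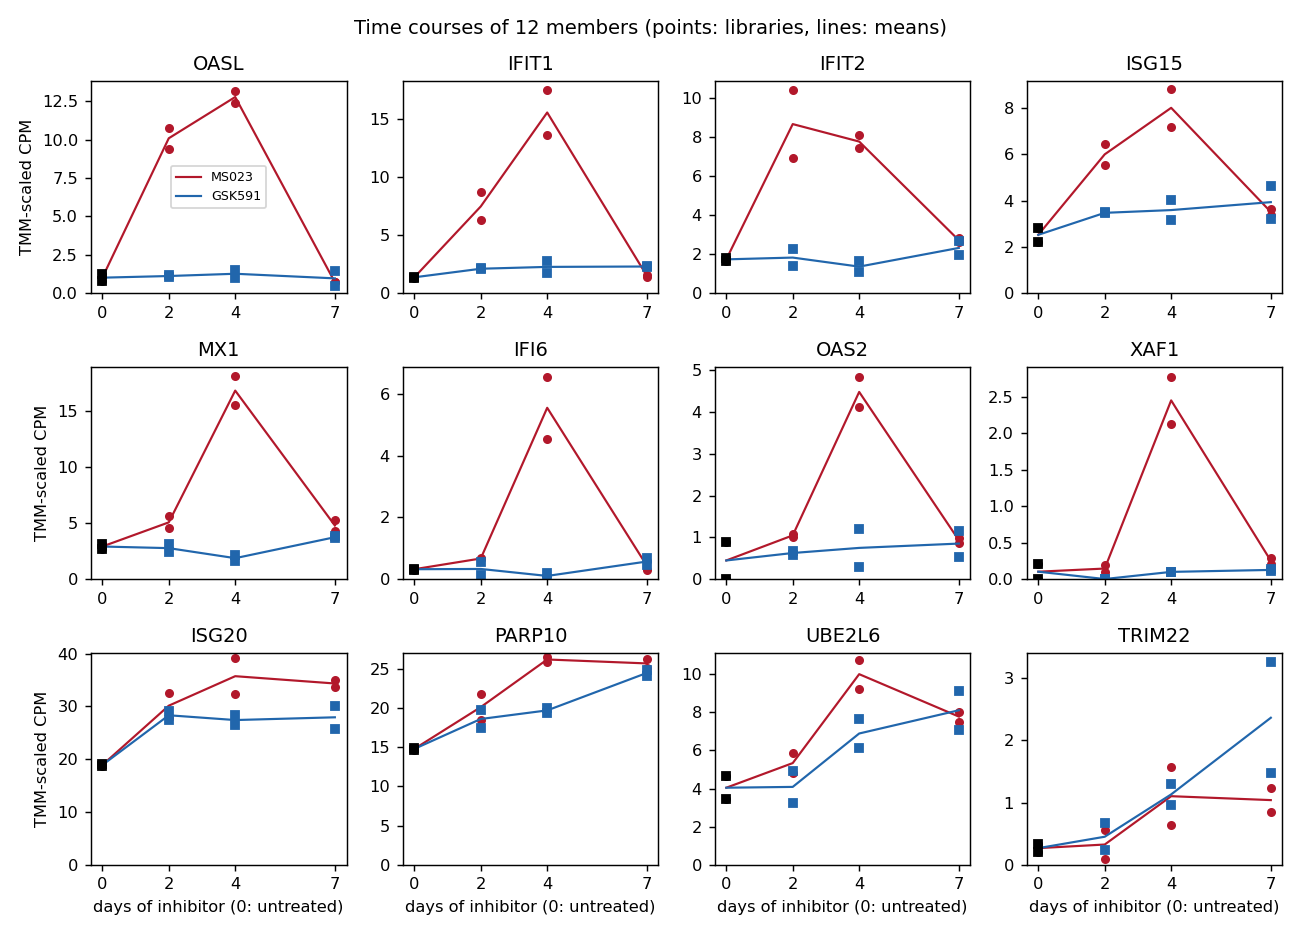
TMM-scaled CPM of 12 effector genes in each library of untreated cells (day 0) and after 2, 4 and 7 days of MS023 or GSK591, with 2 points per group. OASL and IFIT1 are high at 2 and 4 days of MS023 and near the untreated level at 7 days, whereas ISG20 and PARP10 remain above it at 7 days.

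Of the antiviral GTPases, MX1 binds viral nucleocapsids in the cytoplasm and MX2 acts at the nuclear pore. MX1 (ENSG00000157601.13, chr21:41420304-41459214) stood at 2.67 and 3.12 CPM untreated, 5.57 and 4.52 on day 2, 15.5 and 18.1 on day 4, and 4.25 and 5.28 on day 7. Its 4-day libraries are far above the rest, and the difference was 2.53 (SE 0.244, adjusted p = 4.75e-11 by edgeR). An antisense gene, AP001610.1, shares 2.74% of the exon bases of MX1, and whether the counting used strand is not given in the sources used here. MX2, next to it, reached the filter's count in both libraries of only 2 groups, both with MS023, so a rise there was favoured. MX2 was 0.111 and 0.403 CPM untreated and 1.21 and 1.50 at 4 days (2.31, SE 0.713, adjusted p = 0.0213 by edgeR). That call was lost without untreated replicate 1 (adjusted p = 0.262) and without MS023 replicate 1 (0.0544) or replicate 2 (0.128). GBP3, a guanylate-binding protein, reached the filter's count in both libraries of only 3 groups, all with 7 days of an inhibitor. A rise at 7 days was therefore favoured by the filter. GBP3 was the one member highest at 7 days, with 0.334 and 0.504 CPM untreated and 0.921 and 2.17 at 7 days (1.84, SE 0.642, adjusted p = 0.0463 by edgeR). It no longer passed without either untreated replicate 1 (0.26) or 2 (0.143), or without MS023 replicate 2 (0.462).

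The membrane-acting effectors block viruses at entry or exit. The IFITM proteins stiffen endosomal membranes, BST2 (tetherin) holds budding particles to the cell, and PLSCR1 is a phospholipid scramblase. Of these 5 genes, 3 were higher at 4 days, where 14.2% of all genes passed in either direction. IFITM2 was 5.01 and 4.63 CPM untreated, 8.02 and 9.69 on day 2, 10.0 and 10.7 on day 4, and 6.87 and 6.95 on day 7, and all 6 MS023 libraries exceed both untreated ones. The difference was 0.88 (SE 0.221, adjusted p = 0.00573) at 2 days and 1.10 (SE 0.212, adjusted p = 0.000171) at 4 days by edgeR, the former lost without untreated replicate 2 (0.0801) or MS023 replicate 2 (0.112). IFITM3 read 3.45 and 6.05 CPM untreated and 10.5 and 11.0 at 4 days (1.16, SE 0.235, adjusted p = 0.000321 by edgeR, and 0.0613 without untreated replicate 1). IFITM1 and IFITM2 share exon bases, 32.5% and 22.7% of theirs, so reads between them are uncertain. The opposite-strand gene AC136475.5 shares 21.3% of the exon bases of IFITM3, and SP110 shares 20.9% of its own with genes on the opposite strand. BST2 rested on 1 count in the untreated libraries and 40 at 4 days, a ratio of 26.9 with a 95% counting interval of 4.56 to 1089. PLSCR1 did not pass with MS023 at any time and read 9.57 and 10.6 CPM untreated and 7.25 and 10.6 at 4 days.

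ISG15 is a ubiquitin-like protein that is attached to newly made proteins by the E2 enzyme UBE2L6 and the E3 ligase HERC5 and removed by USP18. Of the 5 genes of this system, 2 were higher at 2 days, 3 at 4 days and 1 at 7 days, beside 10.4%, 14.2% and 13.6% of all genes in either direction. ISG15 itself read 2.22 and 2.82 CPM untreated, 6.45 and 5.54 on day 2, 7.18 and 8.83 on day 4, and 3.40 and 3.62 on day 7. Its difference at 4 days was 1.66 (SE 0.277, adjusted p = 1.85e-05 by edgeR). Per kilobase of annotated exon sequence (GENCODE 29), ISG15 was the highest of the 48 genes at 4 days, at 7.63 and 9.38 CPM per kilobase, a range that overlaps those of LGALS3BP (7.99 and 8.36) and IFITM3 (7.80 and 8.13).

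UBE2L6 (ENSG00000156587.15) was still high at 7 days. It read 3.45 and 4.63 CPM untreated, 5.87 and 4.80 on day 2, 9.24 and 10.8 on day 4, and 7.51 and 8.03 on day 7, and both later times lie above the untreated range. The difference was 1.30 (SE 0.226) at 4 days and 0.93 (SE 0.231, adjusted p = 0.00373 by edgeR) at 7 days, the latter lost without untreated replicate 1 (adjusted p = 0.115). HERC6, a relative of HERC5, was 1.22 and 2.12 CPM untreated and 6.89 and 7.62 at 4 days, a difference of 2.10 (SE 0.328). The 2 genes of the system that did not pass at 4 days differ in their values: HERC5 had 3.23 and 3.63 CPM untreated and 5.19 and 5.48 at 4 days, and USP18, also a feedback inhibitor at the interferon receptor, had 3.67 and 2.52 untreated and 3.20 and 2.92 at 4 days (-0.01, adjusted p = 0.992 by edgeR).

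The PARP genes code for ADP-ribosyltransferases, and PARP9 works in a complex with the ubiquitin ligase DTX3L, whose gene lies head to head with it on chromosome 3. All 5 genes of this group were higher at 4 days, with 3 higher at 2 days and 3 at 7 days. The shares of all genes that passed in either direction were 14.2% at 4 days, 10.4% at 2 days and 13.6% at 7 days. PARP10 (ENSG00000178685.13) read 14.7 and 14.9 CPM untreated, 21.8 and 18.5 on day 2, 26.5 and 25.9 on day 4, and 25.1 and 26.3 on day 7. Its 4-day and 7-day ranges overlap. PARP9 was 2.45 and 1.71 CPM untreated, 3.72 and 5.08 on day 2, 7.82 and 8.69 on day 4, and 3.26 and 4.27 on day 7. PARP12 was 6.78 and 6.55 CPM untreated, 9.48 and 10.2 on day 2, 11.3 and 11.8 on day 4, and 8.78 and 10.6 on day 7. These 3 genes and the exonuclease ISG20 were the 4 members higher at all 3 times, in comparisons that share the untreated libraries.

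The 7-day differences were 0.80 (SE 0.132, adjusted p = 1.95e-05) for PARP10, 0.86 (SE 0.297, adjusted p = 0.0439) for PARP9 and 0.54 (SE 0.183, adjusted p = 0.0413) for PARP12 by edgeR. That of PARP12 was lost without untreated replicate 1 (0.154), untreated replicate 2 (0.205) or MS023 replicate 2 (0.308). That of PARP9 was lost with any one library left out, with adjusted p = 0.0522 to 0.36. DTX3L was 4.12 and 4.63 CPM untreated and 8.10 and 9.26 at 4 days, and PARP14 14.8 and 15.7 untreated and 20.7 and 24.2 at 4 days. For both genes the call at 4 days was lost without untreated replicate 1 (0.0682 and 0.0939) or MS023 replicate 2 (0.0546 and 0.141).

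Nucleotide and RNA metabolism is represented by ISG20, a 3′ to 5′ exonuclease, by RSAD2 (viperin), which makes a chain-terminating nucleotide, and by CMPK2, the mitochondrial kinase encoded beside it. ISG20 (ENSG00000172183.14, chr15:88636153-88656483) was 19.1 and 18.6 CPM untreated, 32.5 and 27.8 on day 2, 39.2 and 32.3 on day 4, and 34.9 and 33.7 on day 7. The 4-day range overlaps both other times, and all 3 lie above the untreated libraries, by 0.67 (SE 0.156), 0.92 (SE 0.152) and 0.86 (SE 0.152, adjusted p = 8.91e-05 by edgeR). The 2-day call was lost without MS023 replicate 1 (adjusted p = 0.0881). CMPK2 read 2.00 and 1.81 CPM untreated, 2.25 and 2.31 on day 2, 5.05 and 7.19 on day 4, and 3.12 and 3.55 on day 7, a difference of 1.68 (SE 0.311) at 4 days. RSAD2 did not pass: its libraries read 1.33 and 1.31 CPM untreated and 2.84 and 2.49 at 4 days (1.01, adjusted p = 0.141 by edgeR).

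Among the TRIM ubiquitin ligases, TRIM25, which activates the RNA sensor RIG-I, read 26.0 and 26.1 CPM untreated and 32.7 and 34.3 at 4 days (0.36, SE 0.120, adjusted p = 0.0330 by edgeR). The call was lost with any 1 of the 4 libraries left out, with adjusted p from 0.0858 to 0.19. TRIM21, the cytosolic antibody receptor whose promoter is shown above, was 1.67 and 1.91 CPM untreated and 2.70 and 2.49 at 4 days (0.53, adjusted p = 0.314 by edgeR). Of the nuclear proteins SP100, SP110 and IFI16, none passed with MS023, and SP100, which forms nuclear bodies with PML, read 9.79 and 6.05 CPM untreated and 10.2 and 12.1 at 4 days. SP100 and TRIM21 passed in no comparison at all. SAMD9, a translation inhibitor, read 2.56 and 2.52 CPM untreated and 4.83 and 7.19 at 4 days (1.24, SE 0.341, adjusted p = 0.00947 by edgeR). Leaving out untreated replicate 1 (0.0793), untreated replicate 2 (0.0787) or MS023 replicate 2 (0.176) ended that call.

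Of the remaining effectors, IFI6, a protein of the endoplasmic reticulum that counters flaviviruses, read 0.334 and 0.302 CPM untreated, 0.684 and 0.646 on day 2, 4.55 and 6.55 on day 4, and 0.283 and 0.579 on day 7. Those are 6 counts untreated and 156 at 4 days, a ratio of 17.5 with a 95% counting interval of 7.86 to 48.4. Per kilobase of exon, IFI6 ranked 27 of the 48 genes in untreated cells and 6 at 4 days. IFI27, a mitochondrial protein used widely as a marker of interferon exposure, read 2.22 and 2.62 CPM untreated, 2.35 and 2.49 on day 2, 8.31 and 7.26 on day 4, and 2.05 and 1.74 on day 7. The 4-day libraries lie above all the others and the 7-day libraries below them (at 4 days 1.68, SE 0.305, adjusted p = 6.84e-05 by edgeR). LGALS3BP, a secreted glycoprotein, read 21.9 and 20.3 CPM untreated, 29.7 and 30.1 on day 2, 28.6 and 30.0 on day 4, and 23.9 and 23.3 on day 7. It passed at 2 days (0.51, SE 0.123) and 4 days (0.48, SE 0.121), but without untreated replicate 2 its adjusted p in edgeR was 0.0872 and 0.0857, and at 4 days without MS023 replicate 2 it was 0.0601. XAF1, a pro-apoptotic partner of XIAP, had 2 counts untreated and 69 at 4 days, a ratio of 23.2 with a 95% counting interval of 6.19 to 195. Reads of XAF1 are uncertain, since the opposite-strand gene PRAL shares 38.3% of the exon bases of XAF1. Without untreated replicate 1, XAF1 had adjusted p = 0.05 and BST2 0.105 in edgeR at 4 days.

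The genes were also split by the response element in their promoter. At 4 days of MS023, of 23 tested genes with the element, 17 were higher, with a median difference of 1.10, and of 11 tested genes without it, 6 were higher, with a median of 1.03. Over all genes, 14.2% passed at that time in either direction, and no test was run on this split.

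**Figure D3:**
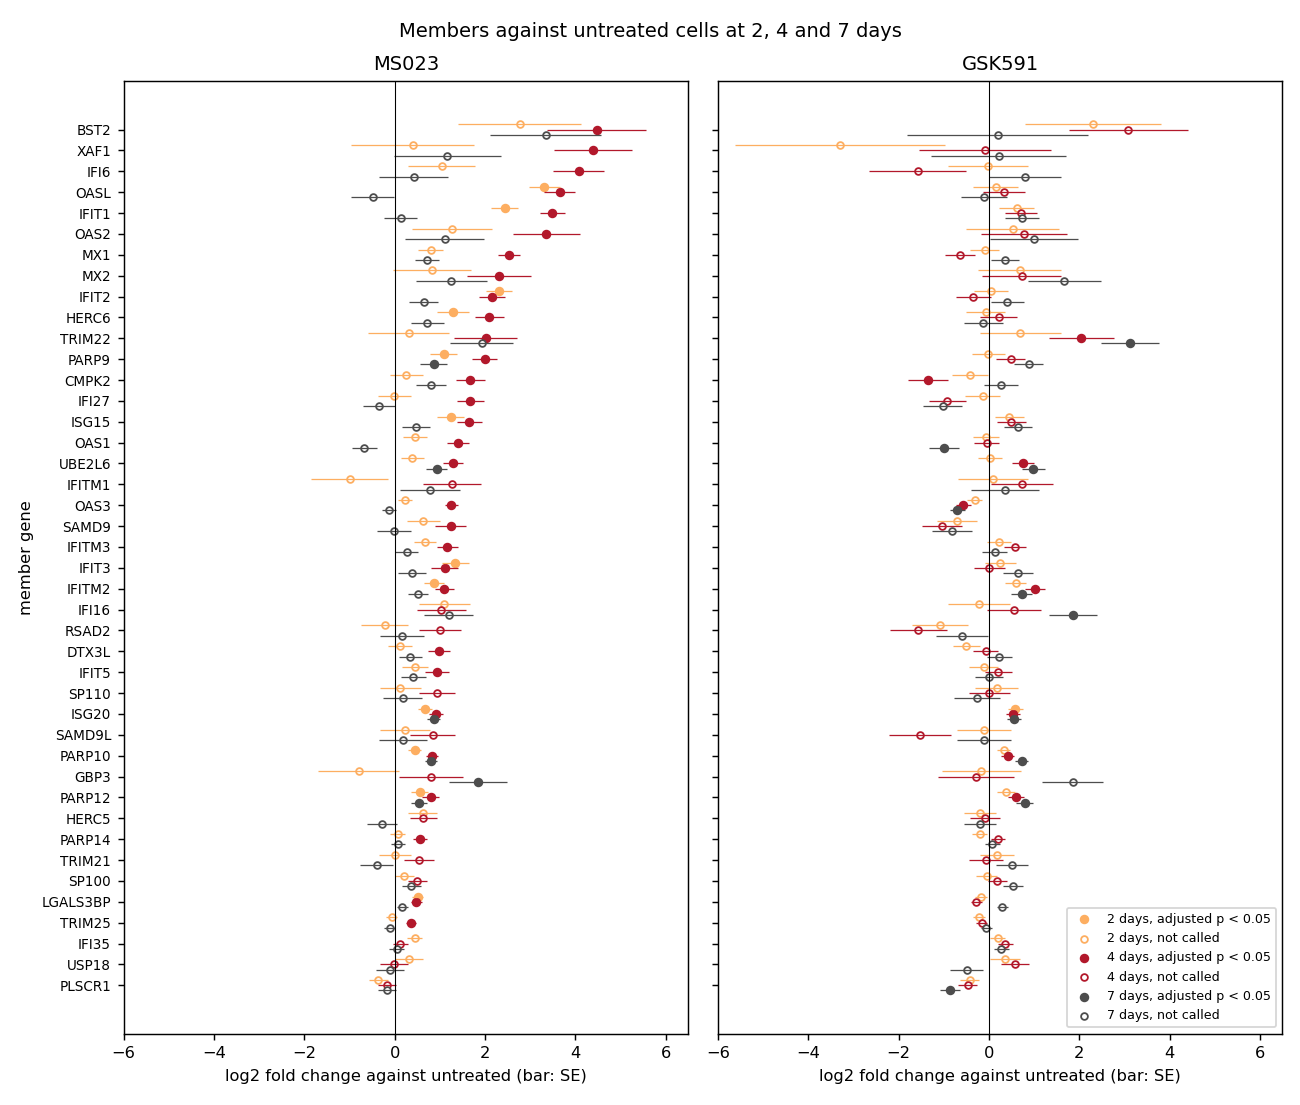
Log2 difference from untreated cells, with its standard error, for the 42 tested effector genes after 2, 4 and 7 days of MS023 or of GSK591. With MS023 the 4-day points lie furthest right, at a median of 1.13, and the 2-day and 7-day points at 0.45 and 0.40, whereas the GSK591 points have medians of -0.02, 0.20 and 0.29; the fitted values of XAF1 and BST2 rest on 2 and 1 untreated counts.

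The steps between times were tested directly, without the untreated group. From 2 to 4 days of MS023, 14 of the 42 genes rose and 0 fell, against 4.91% of all genes in either direction. Of the 27 members with enough untreated counts, 10 rose. MX1 rose by 1.73 (SE 0.221, adjusted p = 5.78e-07), OAS3 by 1.03 (SE 0.136, adjusted p = 1.35e-06) and IFI27 by 1.68 (SE 0.299, adjusted p = 0.000241) by edgeR. These 3 passed with any one library left out. So did IFI6, but like XAF1 it was tested only because of its counts at 4 days, so its rise is a description. The number that passed fell to 4 without MS023 4-day replicate 2.

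From 4 to 7 days, 20 genes fell and 0 rose, against 9.04% of all genes in either direction. Of the 27 members with enough untreated counts, 14 fell and 0 rose. IFI6 and XAF1 are among the 20 and were tested only because of their 4-day counts. OASL fell by 4.13 on the log2 scale (SE 0.328, adjusted p = 2.38e-13), IFIT1 by 3.36 (SE 0.257, adjusted p = 7.69e-14), OAS1 by 2.07 (SE 0.246, adjusted p = 3.39e-08), MX1 by 1.81 (SE 0.215, adjusted p = 3.14e-08) and IFIT2 by 1.51 (SE 0.258, adjusted p = 5.76e-05), all in edgeR's quasi-likelihood test. With any one library left out, 11 of the 20 still passed, and the lowest number was 11, without MS023 4-day replicate 2. With total counts as the scaling, 9 members passed from 4 to 7 days, beside 1050 of all 22919 genes tested. Of those calls over all genes, 92.1% were higher, against 47.32% with TMM. From 2 to 4 days 7 members passed, beside 79 of all genes.

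Both libraries at 4 days of MS023 exceeded all libraries at 2 and 7 days and of untreated cells for 27 of the 42 genes. Among them were IFI6, XAF1 and BST2, which passed the count filter only through these libraries. Of the 27 members that reached the filter's count in both untreated libraries, 16 had this shape. The same held for 7.52% of all genes tested. At 2 days the count was 2 (IFIT3 and IFI35), against 8.46% of all genes. At 7 days it was 1 (GBP3, whose rise was favoured by the filter), against 10.1%. The members differed in when these levels were reached. Expressed as a share of the rise above untreated cells at 4 days, the rise at 2 days was 133% for IFIT3, 115% for IFIT2, 77.2% for OASL, 43.0% for IFIT1, 15.5% for MX1, 12.3% for OAS3 and 6.64% for IFI6. At 7 days, it was 95.6% for PARP10 and 91.8% for ISG20, but 0.930% for IFIT1 and 2.16% for IFI6. These shares describe group means of 2 libraries and carry no test.

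With GSK591, the numbers of effector genes that differed from untreated cells were near or below those over all genes at 2 and 4 days. At 2 days 1 of the 42 genes was higher (ISG20) and 0 lower, against 5.64% of all genes in either direction. At 4 days 6 were higher and 2 lower, against 17.2%, and at 7 days 7 were higher and 3 lower, against 13.2%. The median differences of the 42 were -0.02, 0.20 and 0.29. Each of these comparisons uses the same 2 untreated libraries as those with MS023. With any one library left out, 0, 1 and 2 of these calls remained, namely IFITM2 at 4 days and OAS3 and PARP10 at 7 days. The smallest numbers were 0 at 2 days with any library left out, 2 at 4 days without untreated replicate 1 or GSK591 replicate 1, and 5 at 7 days without untreated replicate 2 or GSK591 replicate 1. Scaled by total counts, 1 member passed at 7 days, beside 1135 of all 22919 genes tested.

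The genes higher with GSK591 included ISG20, PARP10, PARP12, UBE2L6 and IFITM2. ISG20 read 27.4 and 29.2 CPM on day 2, 28.4 and 26.4 on day 4, and 25.7 and 30.2 on day 7, against 19.1 and 18.6 untreated, with no overlap. PARP10 read 19.8 and 17.5, 20.1 and 19.4, and 24.1 and 24.9 CPM at the 3 times, and its 7-day difference was 0.73 (SE 0.139, adjusted p = 0.000162 by edgeR). UBE2L6 read 6.15 and 7.62 CPM at 4 days and 7.09 and 9.11 at 7 days (0.99, SE 0.245, adjusted p = 0.00374 by edgeR, and 0.0952 without untreated replicate 1 or 0.0936 without GSK591 replicate 2). IFITM2 stood at 8.55 and 11.1 CPM at 4 days, a difference of 1.03 (SE 0.219, adjusted p = 0.000527 by edgeR), and at 7.09 and 8.98 at 7 days. PARP12 read 9.60 and 10.6 CPM at 4 days and 12.6 and 10.5 at 7 days, a difference of 0.79 at 7 days (SE 0.190, adjusted p = 0.00279 by edgeR, and 0.0955 without GSK591 replicate 1).

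TRIM22, a ligase that restricts retroviruses, had its highest values with GSK591. Neither TRIM22 nor IFI16, given below, reached the filter's count in both untreated libraries, so a rise was favoured by the filter. It read 0.334 and 0.202 CPM untreated and 0.672 and 0.23, 0.96 and 1.30, and 3.25 and 1.47 CPM at 2, 4 and 7 days of GSK591. The 7-day libraries are the highest of the 3 times but differ from each other more than 2-fold, and the difference of 3.12 (SE 0.650, adjusted p = 0.000518 by edgeR) was no longer past the threshold without GSK591 replicate 1 (2.42, adjusted p = 0.0644). In the 7-day GSK591 cells that also had Dex, TRIM22 read 4.51 and 4.81 CPM at 15 min and 2.65 and 3.78 at 3 h. Those libraries are not part of that contrast, but their counts entered the filter, so they are no independent support. IFI16, a nuclear DNA sensor, was 0.779 and 0.806 CPM untreated and 3.02 and 2.81 at 7 days (1.87, SE 0.536, adjusted p = 0.0146 by edgeR), a call lost with any one library left out, with adjusted p from 0.055 to 0.103.

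Other members were lower with GSK591. OAS3 read 13.3 and 14.3 CPM untreated, 10.6 and 11.6 on day 2, 9.32 and 9.43 on day 4, and 8.37 and 8.71 on day 7, so that all 6 libraries lie below the untreated ones. The difference was -0.56 (SE 0.161, adjusted p = 0.0103) at 4 days and -0.70 (SE 0.169, adjusted p = 0.00305) at 7 days by edgeR. The 4-day call was lost without untreated replicate 2 (0.104) or GSK591 replicate 1 (0.0725) or 2 (0.0659). OAS1 at 7 days read 2.32 and 2.01 CPM (-0.99, SE 0.323, adjusted p = 0.0313 by edgeR) and PLSCR1 5.46 and 5.63 (-0.86, SE 0.227, adjusted p = 0.00651 by edgeR). Without single libraries the adjusted p of OAS1 was 0.0733 to 0.182, and that of PLSCR1 was 0.0775 without untreated replicate 2 and 0.0704 without GSK591 replicate 1. CMPK2 was lower at 4 days, at 0.384 and 1.10 CPM (-1.36, SE 0.440, adjusted p = 0.0256 by edgeR), and without GSK591 replicate 1 its adjusted p was 0.374.

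The GSK591 times were compared with each other in the same way. From 2 to 4 days 0 of the 42 passed in edgeR's quasi-likelihood test, 3 had an unadjusted p below 0.05 and DESeq2 called 0, against 3.39% of all genes. From 4 to 7 days 4 rose and 1 fell, against 8.29% of all genes: GBP3, CMPK2, MX1 and LGALS3BP rose and USP18 fell. Of the 27 members with enough untreated counts, 3 rose and 1 fell. GBP3 is not among these 27, since only groups with 7 days of an inhibitor reached the filter's count for it in both libraries. GBP3 went from 0.48 and 0.201 CPM to 1.39 and 1.74, CMPK2 from 0.384 and 1.10 to 2.32 and 2.28, and MX1 from 2.11 and 1.60 to 3.84 and 3.62. USP18 went the other way, from 4.51 and 4.71 to 1.86 and 2.55. LGALS3BP went from 15.8 and 19.0 CPM to 25.6 and 26.3 (0.58, SE 0.129, adjusted p = 0.00248 by edgeR). Without GSK591 4-day replicate 1, 0 of the 5 passed. The libraries at 2, 4 and 7 days lay above all the others for 0, 1 and 11 of the 42 genes, against 5.29%, 8.69% and 9.81% of all genes. Among the 27 members with enough untreated counts the numbers were 0, 0 and 8.

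The direct comparison of the inhibitors at 1 µM each, at matched times, needs no untreated library. MS023 was above GSK591 for 8 of the 42 genes at 2 days, 22 at 4 days and 2 at 7 days, and below it for 0 at each time. The shares of all genes that passed in either direction were 2.69%, 6.03% and 9.38%. Of the 27 members with enough untreated counts, 5 were higher at 2 days and 14 at 4 days. The median difference of the 42 was 0.49, 1.08 and 0.09. At 4 days OASL was higher with MS023 by 3.31 (SE 0.316, adjusted p = 4.46e-11), MX1 by 3.16 (SE 0.260, adjusted p = 4.22e-13), CMPK2 by 3.03 (SE 0.363, adjusted p = 2.50e-08) and OAS3 by 1.81 (SE 0.146, adjusted p = 3.11e-13), by edgeR. At 7 days the 2 genes were PLSCR1, at 7.93 and 9.99 CPM with MS023 and 5.46 and 5.63 with GSK591 (0.69, SE 0.222, adjusted p = 0.0376), and OAS3, at 14.6 and 10.8 against 8.37 and 8.71 (0.57, SE 0.164, adjusted p = 0.0183), by edgeR.

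With any one library left out, 4 of the 8 genes at 2 days and 13 of the 22 at 4 days still passed, and neither of the 2 at 7 days. The lowest number at 4 days was 15, without GSK591 replicate 1. Scaling by total counts shifted the median of all genes by 1.07 at 7 days. It then gave 32 members, beside 16029 of all 22919 genes tested. Of those calls over all genes, 99.39% were higher, against 47.65% with TMM. DESeq2 gave 0 members.

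Dex, which acts through the glucocorticoid receptor and is used to damp inflammation, was tested on these genes in the same way. After 15 min 0 of the 42 passed in edgeR's quasi-likelihood test, with 6 at an unadjusted p below 0.05 and 0 by DESeq2, against 1.26% of all genes. After 3 h 1 was higher and 4 lower, against 10.5%, so the number that passed is near that over all genes. IFIT2 read 0.319 and 0.488 CPM after 3 h, against 1.67 and 1.81 untreated, a difference of -2.10 (SE 0.508, adjusted p = 0.00310 by edgeR). OAS1 read 1.70 and 1.22 against 4.67 and 4.03 (-1.55, SE 0.341, adjusted p = 0.00103 by edgeR). LGALS3BP read 12.3 and 13.6 against 21.9 and 20.3 (-0.70, SE 0.137, adjusted p = 0.000179 by edgeR). For these 3 genes, and also for PLSCR1 and IFI35 below, the groups do not overlap, which was not counted over all genes.

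PLSCR1 was 5.85 and 5.74 CPM after Dex against 9.57 and 10.6 (-0.80, SE 0.222, adjusted p = 0.0117 by edgeR), and IFI35, a leucine-zipper protein that binds NMI, was higher, at 17.6 and 20.8 against 14.6 and 11.7 (0.55, SE 0.165, adjusted p = 0.0219 by edgeR). Leaving out a library ended 3 of the 5 calls. IFIT2 had adjusted p = 0.078 without Dex replicate 1, PLSCR1 had 0.0766 to 0.118, and IFI35 had 0.299 without untreated replicate 2 and 0.245 without Dex replicate 2. An inhibitor was also added for the same 3 h as Dex. With GSK591 and Dex against Dex alone, 0 members passed in edgeR's quasi-likelihood test and 2 had an unadjusted p below 0.05, against 0% of all genes. With MS023 and Dex, 0 passed and 7 had an unadjusted p below 0.05, against 0.196%. DESeq2 called 0 members in both comparisons. Without replicate 1 of Dex with MS023, the group whose libraries correlated least, 5 members passed.

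**Figure D4:**
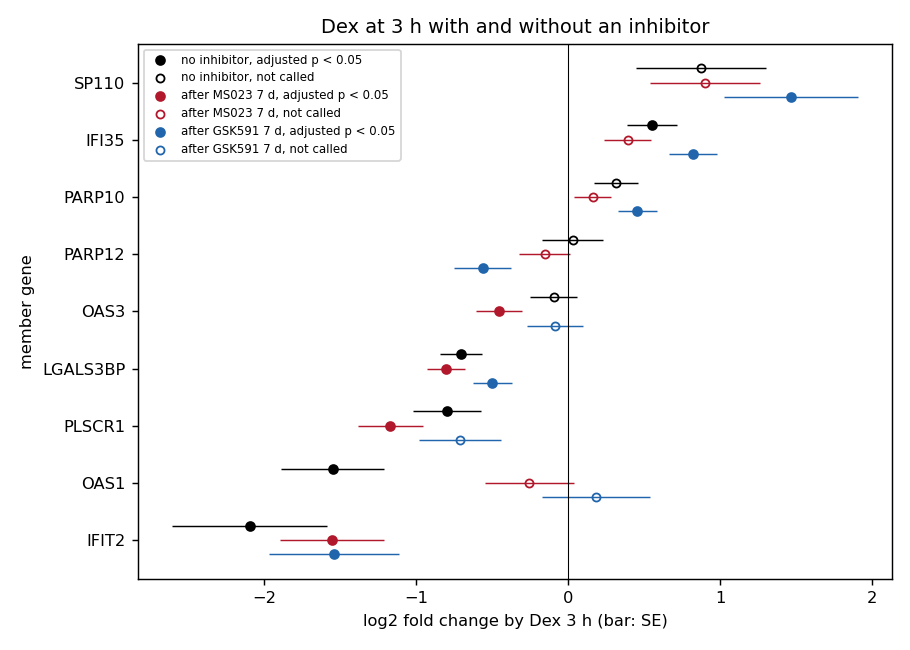
Log2 difference by 3 h of Dex, with its standard error, for 9 effector genes in 3 backgrounds. The cells had no inhibitor, or MS023 or GSK591 for 7 days, and filled points passed the test. IFIT2 and LGALS3BP are lower with Dex in all 3 backgrounds, for example at -2.10 for IFIT2 without an inhibitor.

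After 7 days of an inhibitor, Dex for 15 min again changed 0 members in edgeR's quasi-likelihood test, against 2.07% of all genes in the MS023 cells and 2.09% in the GSK591 cells. Unadjusted p-values were below 0.05 for 5 and 4 members, and DESeq2 called 0 in both. Dex for 3 h changed 4 members in MS023 cells, all lower, against 11.1% of all genes. IFIT2 read 0.879 and 0.96 CPM with Dex and 2.62 and 2.82 without (-1.55, SE 0.341, adjusted p = 0.000891 by edgeR). PLSCR1 read 3.95 and 3.99 against 7.93 and 9.99 (-1.17, SE 0.213, adjusted p = 5.83e-05 by edgeR). LGALS3BP read 14.6 and 12.4 against 23.9 and 23.3 (-0.81, SE 0.124, adjusted p = 2.51e-06 by edgeR). These 3 calls held with any one library left out. The fourth, OAS3 (-0.45, SE 0.150, adjusted p = 0.0395 by edgeR), had adjusted p = 0.618 without MS023 7-day replicate 1, and 0.262 or 0.114 without replicate 1 or 2 of the Dex libraries.

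In the GSK591 cells, 3 members were higher and 3 lower after 3 h of Dex, against 9.85% of all genes. IFIT2 (-1.54), LGALS3BP (-0.50) and PARP12 (-0.56) were lower, and SP110 (1.47), IFI35 (0.82) and PARP10 (0.46) higher. IFI35 read 26.8 and 29.2 CPM with Dex against 14.1 and 17.8 without (SE 0.159, adjusted p = 0.000191 by edgeR), and it alone of the 6 passed with any one library left out. The smallest number was 2, and 2 passed with total counts as the scaling. Whether 7 days of an inhibitor altered the Dex response was tested by an interaction term, and 0 members passed for either inhibitor, against 0.223% of all genes for MS023 and 0.223% for GSK591. An unadjusted p below 0.05 was found for 4 members in each, and DESeq2 called 0 in both. The lowest p belonged to OAS1 in both: the interaction was 1.29 (SE 0.456, adjusted p = 0.286) for MS023 and 1.73 (SE 0.497, adjusted p = 0.142) for GSK591, by edgeR.

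The genes upstream of the effectors were followed from lists of the pathway. Of the interferons, only 3 of 10 had enough counts to test. IFNE, an epithelial type I interferon, was higher after 4 days of MS023: 1.42 and 1.28 CPM against 0.222 and 0.403 untreated (2.05, SE 0.569, adjusted p = 0.00984 by edgeR). Those are 20 and 18 counts against 2 and 4. IFNE could be tested only through groups other than the untreated one, so a rise was favoured by the filter. The other 2 testable interferons did not pass: IFNA1 read 0.142 and 0.142 CPM against 0.556 and 0.202 untreated (-1.31, adjusted p = 0.425 by edgeR), and IFNK 0.142 and 0 against 0.222 and 0.302 (-1.73, adjusted p = 0.435 by edgeR). With GSK591 for 4 days IFNE read 3.75 and 2.81 CPM, above both MS023 libraries. Of 9 receptor and kinase genes 0 passed at 4 days of MS023 in edgeR, with a median difference of 0.02.

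Of 8 transcription factor genes of the pathway 2 were higher at 4 days of MS023, where 14.2% of all genes passed in either direction. IRF9, the DNA-binding subunit of ISGF3, read 3.34 and 2.72 CPM untreated and 7.67 and 8.62 at 4 days (1.43, SE 0.253, adjusted p = 4.51e-05 by edgeR). IRF7, which drives interferon genes, read 19.5 and 17.3 untreated, 28.8 and 32.5 at 4 days and 17.8 and 18.5 at 7 days (0.74 at 4 days, SE 0.130, adjusted p = 4.42e-05 by edgeR). From 4 to 7 days IRF9 fell by 0.99 and IRF7 by 0.76 on the log2 scale, with adjusted p = 0.00252 and 3.72e-05 in edgeR. Higher at the same time, beside the 14.2% of all genes, were 4 of 12 genes of MHC class I presentation, HLA-F (1.42), PSMB8 (0.98), HLA-E (0.62) and HLA-C (0.54), and 2 of 6 feedback genes, PTPN6 (0.64) and SOCS1 (0.63). HLA-F rested on few counts, 9 and 12 untreated and 36 and 48 at 4 days.

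The 6 members that did not pass the filter on low counts were IFI44, IFI44L, EPSTI1, LAMP3, RTP4 and GBP1, which are given by their counts without a test. Summed over the 2 libraries, IFI44L had 2 counts untreated and 14 after 4 days of MS023, a ratio of 4.71 with a 95% counting interval of 1.08 to 42.7. LAMP3 had 2 and 9 (3.03, interval 0.627 to 28.8) and EPSTI1 1 and 10 (6.73, interval 0.957 to 292). RTP4 had 0 and 11, which is 2.47-fold higher when the untreated group is set to 3 counts over the group, with an exact 95% lower limit of 1.69. IFI44 had 0 and 4. GBP1 had 3 and 6 (1.35, interval 0.287 to 8.31), but 18 after 7 days of GSK591 (7.07, interval 2.06 to 37.4). All these intervals cover counting error only.

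The authors' deposited table for 4 days of MS023 against untreated cells, from DESeq2 and a different set of gene rows, lists 39 of the 48 members. It calls 27 of them higher and 0 lower at an adjusted p below 0.05, against 13.4% of all its rows in either direction. Of the members listed there and tested here, 21 were called in both, all 21 in the same direction. The authors' deposited table gives OASL a log2 difference of 3.86 and IFIT1 3.85, against 3.65 and 3.49 here. For PARP10 the authors' deposited table gives 2.64, against 0.82 here. BST2 (0.16) and IFITM3 (0.13) are near 0 in the authors' deposited table and have no adjusted p in it, and whether reads were counted over the same features was not tested. At 2 and 7 days of MS023, the authors' deposited tables call 14 and 6 members higher and 1 and 2 lower. Of all their rows, 9.46% and 13.4% passed in either direction. With GSK591 the authors' deposited tables call 1 higher and 1 lower at 2 days, against 7.00% of their rows in either direction. They call 2 higher and 4 lower at 4 days, against 15.4%, and 5 higher and 4 lower at 7 days, against 14.6%.

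**Figure D5:**
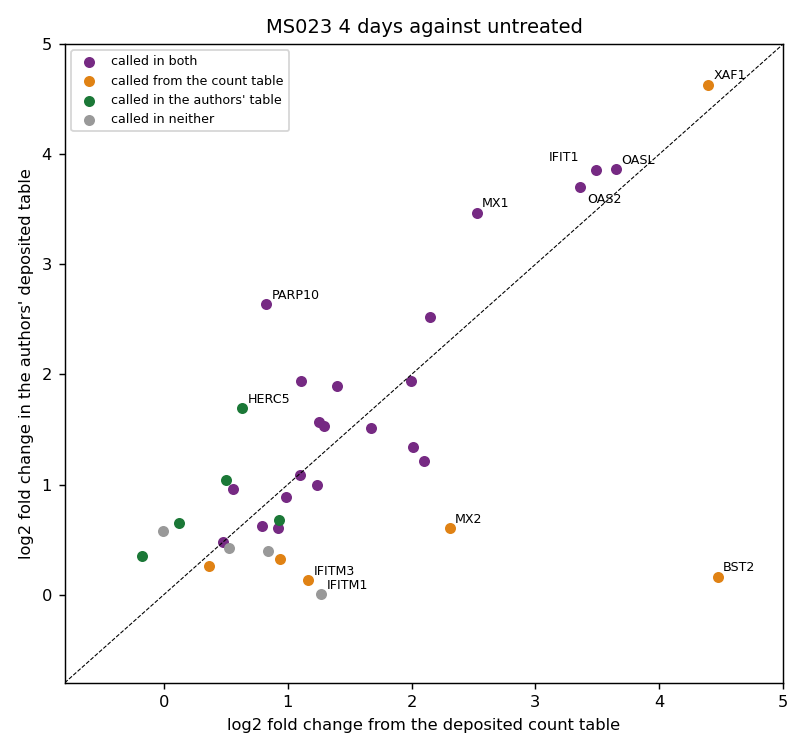
Log2 difference after 4 days of MS023 from the deposited count table (horizontal) against that in the authors' deposited comparison table (vertical), 1 point per member present in both, with the diagonal drawn. Most points lie near the line, for example OASL at 3.65 and 3.86, whereas PARP10 (0.82 and 2.64), BST2 and IFITM3 lie away from it.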

How the data were processed

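PRO-seq libraries of A549 cells, 2 per group, were deposited as one table of counts per gene. Per the submitters' processing notes, Subread and featureCounts 2.0.1 were used with the hg38 build; whether counting used strand, and over which features, is not given in the sources used here. The authors also deposited tables of their own comparisons, which per the file headers hold DESeq2 log2 differences, p-values and a mean signal of normalised counts; these are quoted as deposited. Gene identifiers were matched to GENCODE 29 (58780 of 58780). The 48 members, the pathway lists and the marker lists were chosen with earlier results of these data known.

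Counts were filtered with filterByExpr (minimum count 10, minimum total 15), scaled by TMM and fitted with edgeR's quasi-likelihood test (edgeR 4.0.16, R 4.3.3) over all 15 groups together, without a replicate block, with 15 residual degrees of freedom. Contrasts were adjusted by Benjamini-Hochberg over the 22919 genes tested, with a threshold of 0.05, and the script was tested on simulated counts. Depth was 8441211 to 13069598 counts per library, so ratios of low counts carry exact 95% intervals for counting error. Genes given with all values were, in each comparison of an inhibitor or time, the 5 members past the threshold with the largest difference and a mean of at least 5 CPM, all members where 5 or fewer passed, and the highest member of each role; others named were chosen after their values were seen. Alternatives were total-count scaling, DESeq2 size factors, DESeq2 1.42.0, no low-count filter, no mitochondrial or ribosomal RNA genes, the compared groups alone, a replicate block, and each library left out in turn. Replicate numbers did not pair the libraries. Python 3.11.15 was used for summaries and RefSeq promoter searches.

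Some members of the pathway lists are not reported here.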

Additional observations from a re-analysis of the deposited data

Results flagged for a closer look

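Steps between times that passed edgeR's quasi-likelihood test are listed here because the effect of one inhibitor then differs between 2 of its times, by a test of that difference itself. All values are log2 differences of the later from the earlier time, and the earlier section gives the libraries that end some of these calls.

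From 2 to 4 days of MS023, 14 members rose. Those with the smallest steps were TRIM25 (0.43), PARP14 (0.49), DTX3L (0.87), PARP9 (0.90), UBE2L6 (0.91) and OAS1 (0.95). Larger steps were found for OAS3 (1.03), IFIT1 (1.05), CMPK2 (1.42), IFI27 (1.68), MX1 (1.73) and IFITM1 (2.27), and the largest for IFI6 (3.04) and XAF1 (4.00). IFITM1 read 0.391 and 0.185 CPM at 2 days, and its step was lost with any 1 of the 4 libraries left out (adjusted p = 0.162 to 0.343 in edgeR). IFI6 and XAF1 passed the count filter only through the 4-day libraries, so that a rise into that time was built into their being tested. For IFITM1, only 4 and 7 days of MS023 reached the filter's count in both libraries, which also favoured its rise.

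From 4 to 7 days of MS023, 20 members fell. The synthetase and IFIT genes changed by -4.13 (OASL), -2.25 (OAS2), -2.07 (OAS1), -1.38 (OAS3), -3.36 (IFIT1) and -1.51 (IFIT2). IFI6 (-3.65) and XAF1 (-3.23), chosen by the filter in the same way, IFI27 (-2.03) and MX1 (-1.81) also had large steps. Of the ISG15 system, HERC6 (-1.37), ISG15 (-1.19) and HERC5 (-0.91) fell. Smaller or intermediate steps were those of SAMD9 (-1.26), PARP9 (-1.13), IFITM3 (-0.90), CMPK2 (-0.88), IFITM2 (-0.58), PARP14 (-0.48) and TRIM25 (-0.47).

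From 4 to 7 days of GSK591, GBP3 (2.15), CMPK2 (1.63), MX1 (1.00) and LGALS3BP (0.58) rose and USP18 (-1.07) fell. GBP3 reached the filter's count in both libraries only in groups with 7 days of an inhibitor, so its rise was favoured by the filter. CMPK2 and MX1 fell over the same interval with MS023, and the difference between the 2 steps was not tested.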

How the results depend on the processing

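No difference that passed changed direction under an alternative that gave it a value. DESeq2 gave a value for 132 of the 153 pairs and the compared groups alone for 152. Of 153 gene and comparison pairs past the threshold, 84 passed under every alternative that kept all libraries and 58 under all of them. Only the scaling by total counts shifted the median of all genes by over 0.1. It gave 27 members for MS023 at 2 days, 35 at 7 days, 7 for its step from 2 to 4 days and 9 from 4 to 7 days. It gave 1 for GSK591 at 7 days, 32 for MS023 against GSK591 at 7 days, 3 for Dex at 3 h and 2 for Dex at 3 h after GSK591. Over all 22919 genes tested it gave, in the same order, 9228, 16196, 79, 1050, 1135, 16029, 1259 and 1363. DESeq2 gave 3 for MS023 at 7 days, 2 for GSK591 at 4 days, 1 and 11 for the 2 MS023 steps, 1 for the GSK591 step from 4 to 7 days, 4 and 0 for MS023 against GSK591 at 2 and 7 days, 3 for Dex at 3 h and 2 for Dex at 3 h after GSK591. Without the low-count filter, more genes were tested, and 3 members passed for MS023 at 7 days and 3 for GSK591 from 4 to 7 days. With the compared groups alone 1 passed for GSK591 from 2 to 4 days. At an adjusted p below 0.01 the authors' deposited tables call 1 and 2 members for GSK591 at 2 and 4 days and 3 for MS023 at 7 days. For DESeq2, the run without the filter, the compared groups alone and the stricter threshold, the numbers over all genes are not given here. Whether a smaller number under them is particular to the members was not tested. Apart from the stricter threshold and the untested genes named, the cause was not tested.

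With each library left out in turn, fewer libraries enter the fit. The numbers of members were 7 to 9, 21 to 28 and 2 to 5 for MS023 at 2, 4 and 7 days, 0 to 0, 2 to 3 and 5 to 6 for GSK591, 4 to 9 and 11 to 17 for the MS023 steps and 0 to 2 for the later GSK591 step. They were 4 to 5, 15 to 19 and 0 to 1 for MS023 against GSK591, 3 to 5 for Dex at 3 h, 0 to 5 for Dex with MS023, and 3 to 4 and 2 to 6 for Dex at 3 h after MS023 and GSK591. A lone remaining library was assumed to vary like the other groups.

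Same-numbered libraries did not deviate together: over 105 pairs of groups the correlation ran from -0.451 to 0.487, with a median of 0.0214 and 22 above 0.1. A replicate block gave 30 members for MS023 at 4 days and ended 0 of the 153 calls. Depth limits the members with few counts, for which only large ratios could be seen.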
